A study of Homo sapiens with 6 samples.

Results

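The genes described here are 10 matrix metalloproteinases and tissue inhibitors of metalloproteinases: the membrane-type enzymes MMP14, MMP15, MMP17 and MMP24, the gelatinases MMP2 and MMP9, the stromelysin MMP11, and the inhibitors TIMP1, TIMP2 and TIMP3. They were taken by symbol from a table of 58735 genes, as metalloproteinases and inhibitors that lie outside the MMP cluster of chromosome band 11q22, and all 10 were found. The cells were AsPC-1, a line derived from a human pancreatic cancer and labelled wild type, and their RNA was sequenced after infection with an empty lentivirus (Vector, n = 3) or with a lentivirus carrying MMP28, a secreted metalloproteinase also called epilysin (OE-MMP28, n = 3). According to the study's methods, the MMP28 construct also carried GFP and a puromycin resistance marker, and stably infected cells were selected with puromycin. Whether each line was a pool of cells or 1 clone, the promoter of the construct and the time from selection to harvest were not given in the sources used here. The comparison asks how the RNA of these genes differed between AsPC-1 cells with more MMP28 and their controls.

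Metalloproteinases are made as inactive proenzymes and cut the proteins of the extracellular matrix, and TIMPs block them by filling the active site. The membrane-type enzymes stay on the cell surface. MMP14 activates the proenzyme of MMP2 there in a complex in which TIMP2 is the bridge, so that TIMP2 is both a partner and an inhibitor of MMP14, whereas TIMP1 inhibits secreted enzymes well and membrane-type enzymes poorly. In pancreatic cancer these enzymes are known from both the tumor cells and the stroma, and MMP11 and MMP2 are best known from fibroblasts.

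Total counts ranged from 13633249 to 16691458 per library, and mitochondrial genes took between 11.9% and 14.8% of counts in Vector and between 8.80% and 11.9% in OE-MMP28. MMP28 was at 5.17, 9.11 and 8.43 FPKM (fragments per kilobase of exons, scaled by library size) in Vector replicates 1, 2 and 3, and at 13.1, 13.9 and 15.1 FPKM in OE-MMP28. The groups did not overlap, and MMP28 was 1.87-fold higher in OE-MMP28 (log2 fold change 0.90 ± 0.19, SE, edgeR's quasi-likelihood test, adjusted p = 0.00226). All 8 epithelial markers examined averaged 1 FPKM or more in both groups, with summed levels of 2688 to 3672 FPKM in Vector and 3636 to 4447 in OE-MMP28. MUC1 and KRT19 were called higher, CDH1 and CLDN4 lower, and the other 4 did not pass the test. The 8 fibroblast markers summed to 35.8 to 42.3 FPKM in Vector and 39.9 to 57.7 in OE-MMP28, most of it from LUM, with PDGFRA at 0 in every library. Of the 2 that could be tested, ACTA2 was lower (log2 fold change -1.27, edgeR, adjusted p = 0.00318) and LUM did not pass. The 8 macrophage markers summed to 1.06 to 1.19 FPKM in Vector and 0.934 to 1.06 in OE-MMP28. The 5 endothelial markers summed to 0.0441 to 0.170 FPKM in Vector and 0.179 to 0.293 in OE-MMP28. PECAM1 was called higher at 0, 4 and 4 counts in Vector and 13, 21 and 30 in OE-MMP28. It entered the test only through its OE-MMP28 counts, so its call was fixed by the filter and nothing is read from it. Nothing in the labels says that the replicates of a group came from separate infections, so p-values measure the spread between these samples, which may be technical.

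Of the 10 genes, TIMP1 rose, MMP11 fell, 4 did not pass the test, and 4 had too few counts to be tested. The test was run on 15319 genes, of which 23.4% passed an adjusted p under 0.05 in either direction (11.7% of the genes tested were higher and 11.6% lower in OE-MMP28). With 6 genes tested, 2 calls lie near that share and say nothing particular of these genes. Their median log2 fold change was -0.03, beside 0.014 over all genes tested. TIMP1, MMP11 and MMP24, 3 of the 6, had FPKM values without overlap between the groups, as had 38.1% of all genes tested.

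**Figure D1:**
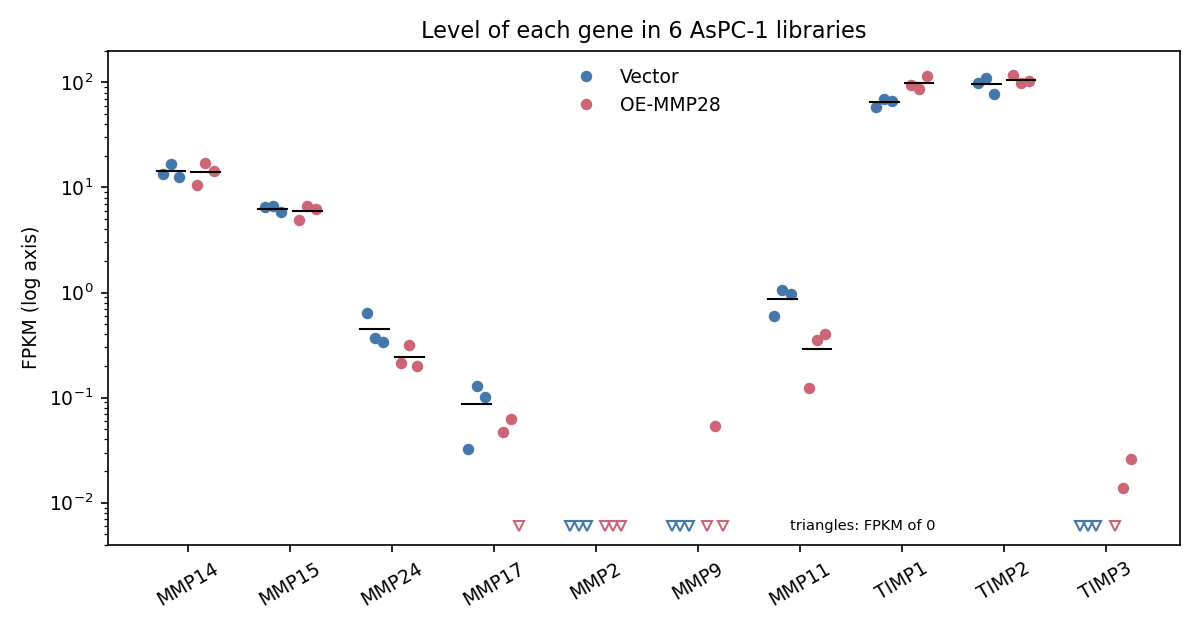
Level of each of the 10 genes in FPKM on a log axis, with 1 point per library (blue, 3 Vector libraries; red, 3 OE-MMP28 libraries), bars at the mean of groups in which no library was at 0, and open triangles for libraries at 0. TIMP2 and TIMP1 stood highest, MMP14 and MMP15 followed, MMP11 and MMP24 lay near or below 1 FPKM, and MMP2 was at 0 in all 6 libraries.

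The promoter sequences shown here belong to the gene that rose, the gene that fell and MMP14, whose chromosomal neighbours rose. RefSeq promoter entries (build GRCh38.p14, the 250 bases before the annotated start) were matched for 6 of the 10 genes: MMP11, MMP14, MMP15, MMP24, TIMP1 and TIMP3. They were searched on both strands for TGANTCA (the binding motif of AP-1, the dimer of FOS and JUN proteins), TGAGTAA (a variant of that motif known from the TIMP1 promoter, added after the sequence had been seen), AGGAAG (bound by ETS factors of the PEA3 group) and GGGCGG (bound by Sp1). Of 35116 promoters of the same length, 6.57% held TGANTCA, 2.21% TGAGTAA, 28.7% AGGAAG and 42.6% GGGCGG. None of these motifs overlap in the sequences printed, and capitals mark the matches in either orientation. A match is a run of letters and does not show binding.

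In TIMP1, a stretch of 30 bases at chrX:47582332-47582361, plus strand, held both TGAGTAA and AGGAAG. It starts 104 bases before the RefSeq start, with TGAGTAA at -101 and AGGAAG at -87, and GENCODE places it in the 5′ end of an exon of longer transcripts.
TIMP1: ggaTGAGTAAtgcatccAGGAAGcctggag
In MMP11, the 220 bases at chr22:23772599-23772818, plus strand, end where the first overlapping GENCODE exon begins. They lie before the RefSeq start but inside the gene as GENCODE annotates it, from 23768226 on. They held GGGCGG at -68 and -41, and a further match at -25 lies in the exon and is not printed.
MMP11: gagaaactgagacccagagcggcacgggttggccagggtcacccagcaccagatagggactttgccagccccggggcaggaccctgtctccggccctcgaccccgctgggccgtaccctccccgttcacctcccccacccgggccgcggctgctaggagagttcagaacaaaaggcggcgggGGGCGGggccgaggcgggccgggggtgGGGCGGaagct
In MMP14, the 222 bases at chr14:22836335-22836556, plus strand, held a single GGGCGG at -66.
MMP14: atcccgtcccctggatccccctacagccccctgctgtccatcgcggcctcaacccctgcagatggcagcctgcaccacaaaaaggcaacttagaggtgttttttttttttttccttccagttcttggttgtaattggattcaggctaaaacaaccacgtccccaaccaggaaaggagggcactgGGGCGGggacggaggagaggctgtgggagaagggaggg
TIMP1 was the only one of the 6 matched genes whose 250 bases held TGAGTAA or AGGAAG, and TGANTCA was found in none of the 6. Because TGAGTAA was added with the TIMP1 sequence in view, its match there was fixed in advance and sets TIMP1 apart in no way.

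TIMP1 (ENSG00000102265, chromosome X, 47582313 to 47586789, GRCh38) encodes the inhibitor of most secreted metalloproteinases and was among the most abundant RNAs of these cells. It was at 58.8, 69.2 and 66.8 FPKM in Vector replicates 1, 2 and 3, and at 94.5, 86.9 and 114.7 FPKM in OE-MMP28. Every OE-MMP28 library was above every Vector library. TIMP1 was 1.53-fold higher in OE-MMP28, a log2 fold change of 0.62 ± 0.154 (SE, 95% interval 0.30 to 0.94, edgeR's quasi-likelihood test, adjusted p = 0.00660). The call held in all 17 alternative settings, with log2 fold changes of 0.49 to 0.69 and adjusted p between 0.00125 and 0.0380. A change in how many cells carried a transcript and a change in its level per cell cannot be told apart in bulk RNA. This holds for TIMP1 and for every gene below.

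TIMP2 (ENSG00000035862, chromosome 17) encodes the inhibitor that also bridges MMP14 and the MMP2 proenzyme. Its levels were 98.5, 111.1 and 77.3 FPKM in Vector and 117.1, 97.6 and 102.5 FPKM in OE-MMP28, so the groups overlapped. The log2 fold change of TIMP2 was 0.15 (95% interval -0.16 to 0.47, adjusted p = 0.506). The interval includes 0 and a rise as large as 1.39-fold. TIMP3, which encodes the inhibitor that binds to the matrix, had 0 counts in every Vector library and 0, 1 and 2 counts in OE-MMP28, at or under the limit of 3 counts that a library with a count of 0 allows.

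The balance of the inhibitors was compared as the ratio of TIMP1 to TIMP2. The TIMP1 level divided by the TIMP2 level was 0.597, 0.623 and 0.864 in Vector and 0.807, 0.891 and 1.12 in OE-MMP28. The log2 ratio was 0.44 higher in OE-MMP28, with groups that overlapped (two-sided exact permutation test, p = 0.2, 0.6 adjusted over the 3 ratios examined). With 3 libraries against 3 this test cannot go below 0.1. TIMP1 made up 36.8%, 37.8% and 45.6% of the summed TIMP level in Vector and 44.0%, 46.4% and 52.0% in OE-MMP28.

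**Figure D2:**
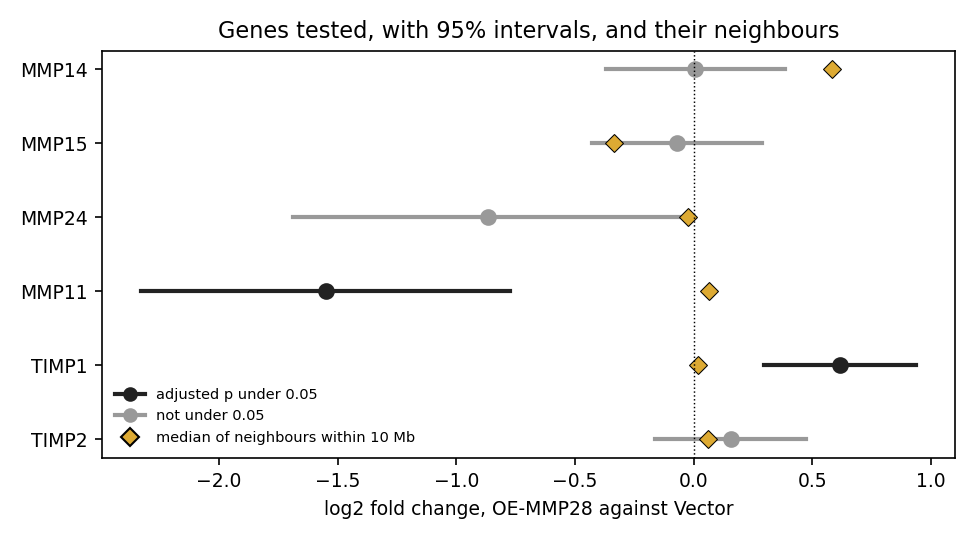
Log2 fold change of the 6 genes that were tested (points) with 95% intervals (lines), black where the adjusted p was under 0.05, and the median log2 fold change of all tested genes within 10 Mb of each (diamonds). The intervals of TIMP1 and MMP11 exclude both 0 and their neighbours' median, whereas MMP14 lies near 0 with neighbours at 0.58.

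MMP11 (ENSG00000099953, chromosome 22, 23768226 to 23784316) encodes stromelysin-3, an enzyme that furin activates inside the cell. It was the member with the largest fall, at a low level. MMP11 was at 0.594, 1.06 and 0.970 FPKM (47, 74 and 74 counts) in Vector and at 0.122, 0.353 and 0.402 FPKM (10, 29 and 35 counts) in OE-MMP28. Each OE-MMP28 library was below each Vector library, and replicate 1 was the lowest within each group. The log2 fold change of MMP11 was -1.55 ± 0.373 (SE, 95% interval -2.33 to -0.77, edgeR's quasi-likelihood test, adjusted p = 0.00520). Leaving out any 1 library kept the call, with values from -1.86 to -1.20.

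The call on MMP11 was lost in the 2 fits with limma on FPKM, which differ from the edgeR fit in unit, test and filter together. With limma on log2(FPKM + 1) the log2 difference was -0.53 (adjusted p = 0.0849), and with a pseudocount of 0.1 it was -1.36 (adjusted p = 0.110). ACTA2, a fibroblast marker that also fell, was at 1.41, 1.77 and 1.87 FPKM in Vector and at 0.722, 0.784 and 0.559 FPKM in OE-MMP28. LUM, the other fibroblast marker tested, went the opposite way without passing. It averaged 37.3 FPKM in Vector and 45.3 in OE-MMP28 (log2 fold change 0.29, edgeR, adjusted p = 0.208). COL1A1, a further fibroblast marker, was at no more than 0.0708 FPKM in any library. The part of fibroblast-type RNA in the fall of MMP11 was not tested. Exons of CHCHD10, a gene of a mitochondrial protein on the opposite strand, cover 4.21% of the MMP11 exon bases. CHCHD10 rose in OE-MMP28 (log2 fold change 0.68 ± 0.183, SE, adjusted p = 0.0107), the direction opposite to MMP11. Whether reads were counted by strand was not given in the sources used here.

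Among the membrane-type enzymes, MMP14 (ENSG00000157227, chromosome 14, 22836557 to 22849027), the surface collagenase that activates MMP2, had the highest RNA level. MMP14 was at 13.4, 16.8 and 12.4 FPKM in Vector and at 10.7, 17.3 and 14.5 FPKM in OE-MMP28. The lowest and the highest value both came from OE-MMP28, and the groups overlapped. The log2 fold change of MMP14 was 0.0070 (95% interval -0.37 to 0.39, adjusted p = 0.984). It did not pass the test, and its sign turned in 15 of 17 alternative settings.

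MMP15 (ENSG00000102996, chromosome 16, 58025566 to 58046901), a close relative of MMP14 with a transmembrane anchor, was at 6.51, 6.60 and 5.80 FPKM in Vector and at 4.88, 6.68 and 6.29 FPKM in OE-MMP28. OE-MMP28 replicate 1 was the lowest of the 6 and the groups overlapped. The log2 fold change of MMP15 was -0.07 (95% interval -0.43 to 0.29, adjusted p = 0.813), and it was 0.043 without OE-MMP28 replicate 1. The level of MMP14 divided by that of MMP15 was between 2.06 and 2.54 in Vector and between 2.19 and 2.58 in OE-MMP28 (log2 difference 0.07, two-sided exact permutation test, p = 0.5, adjusted 0.75).

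MMP24 (ENSG00000125966, chromosome 20, 35226654 to 35277000), known mainly from nervous tissue, was at 0.637, 0.369 and 0.338 FPKM (43, 22 and 22 counts) in Vector and at 0.215, 0.314 and 0.202 FPKM (15, 22 and 15 counts) in OE-MMP28. The FPKM values of the groups did not overlap, although Vector replicates 2 and 3 and OE-MMP28 replicate 2 had the same count. The log2 fold change of MMP24 was -0.87 (95% interval -1.69 to -0.05), with an unadjusted p of 0.0388 that did not pass after adjustment over all genes tested (edgeR, adjusted p = 0.117). Without Vector replicate 1, its highest library, the log2 fold change was -0.52. Exons of MMP24OS on the opposite strand cover 18.1% of the MMP24 exon bases. MMP24OS had 330 to 698 counts per library, far more than MMP24, and a log2 fold change of 0.0078 (adjusted p = 0.985). Without strand, reads of the shared bases cannot be told apart.

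MMP17, whose enzyme is held on the membrane by a lipid anchor, had 2, 7 and 6 counts in Vector and 3, 4 and 0 in OE-MMP28, and was not tested. Of the gelatinases, which cut denatured collagen and type IV collagen, MMP2 had 0 counts in all 6 libraries. A count of 0 allows at most 0.0361 to 0.0450 FPKM of MMP2, depending on the library, with counting error alone considered. MMP9 had 2 counts in OE-MMP28 replicate 2 and 0 elsewhere. RNA of MMP14 and TIMP2 was present in every library, and that of MMP2, the enzyme they activate together, was not detectable at this depth.

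Ordered by mean level per length, the genes ran TIMP2, TIMP1, MMP14, MMP15, MMP11, MMP24 and MMP17 in Vector and in OE-MMP28. In Vector the ranges of TIMP2 and TIMP1 were apart, and in OE-MMP28 they overlapped. MMP14 and MMP15 did not overlap in either group. MMP11 and MMP24 overlapped in both groups, and the other neighbours in the order did not overlap in either. Among 23 MMP genes of the table, MMP14 ranked 3 and MMP15 ranked 5 in mean FPKM in both groups, behind MMP7 and MMP1.

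The summed level of the member enzymes was 21.2, 24.9 and 19.7 FPKM in Vector and 15.9, 24.7 and 21.4 FPKM in OE-MMP28, and MMP14 made up 63.3% to 69.8% of it. Over all 23 MMP genes, MMP28 included, the sum was 147 to 165 FPKM in Vector and 420 to 455 FPKM in OE-MMP28. Most of it was MMP7 RNA, which codes for matrilysin. The member enzymes were thus 11.9% to 16.9% of the summed MMP level in Vector and 3.50% to 5.88% in OE-MMP28. The 4 TIMP genes summed to 147 to 183 FPKM in Vector and 187 to 221 FPKM in OE-MMP28.

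**Figure D3:**
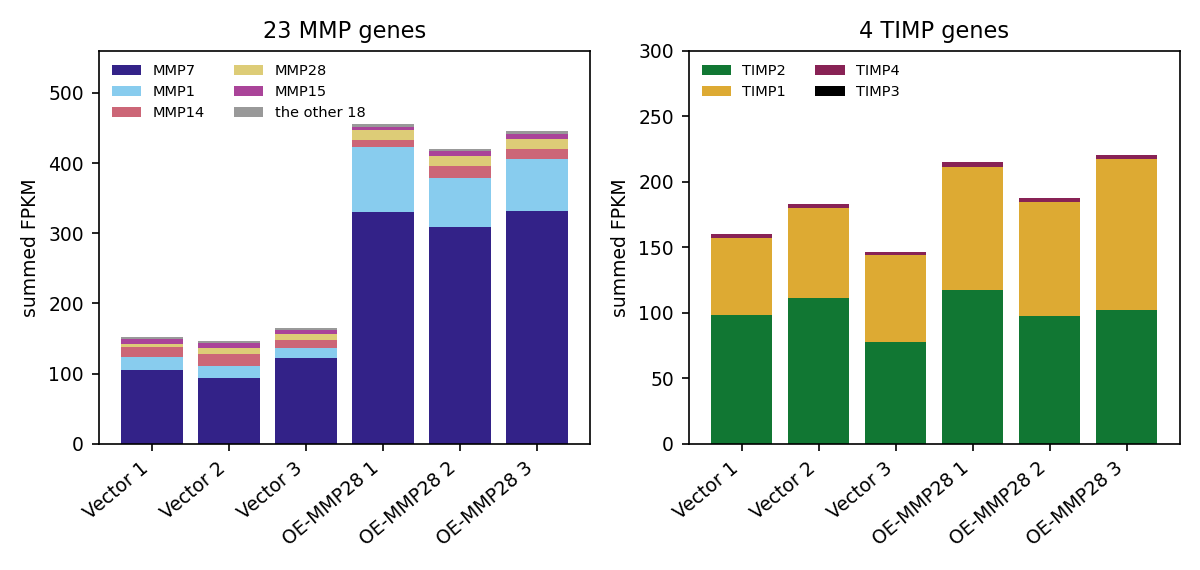
Summed FPKM of 23 MMP genes, MMP28 included (left), and of 4 TIMP genes (right) in each of the 6 libraries, stacked by gene, with axes from 0. The MMP sum was at most 165 FPKM in Vector and at least 420 in OE-MMP28, most of it MMP7 and MMP1, with thin MMP14 and MMP15 layers, and the TIMP sum consisted almost wholly of TIMP2 and TIMP1.

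The relation to the inhibitors depended on which enzymes were summed. Over all 23 MMP genes, the MMP level divided by the TIMP level was 0.953, 0.804 and 1.12 in Vector and 2.12, 2.24 and 2.02 in OE-MMP28, so enzyme RNA was higher relative to inhibitor RNA. Over the member enzymes alone, the summed TIMP level was 7.54, 7.34 and 7.46 times theirs in Vector and 13.5, 7.58 and 10.3 times in OE-MMP28. The Vector libraries lay close together, and OE-MMP28 replicate 2 lay next to them. The level of MMP14 divided by that of TIMP2 was 0.136, 0.151 and 0.161 in Vector and 0.0911, 0.177 and 0.142 in OE-MMP28, with the lowest and the highest value both in OE-MMP28. The log2 ratio differed by -0.18 (two-sided exact permutation test, p = 0.8, adjusted 0.8), and by 0.086 without OE-MMP28 replicate 1.

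MMP14 lies in a stretch of chromosome 14 in which most genes were higher in OE-MMP28. Of 111 tested genes within 10 Mb, 62 were called higher (55.9%, beside 11.7% of all genes) and 2 lower, and their median log2 fold change was 0.58. The median over the 491 tested genes of chromosome 14 was 0.563. The 2 nearest tested genes on each side all rose: SLC7A7 by 0.82, MRPL52 by 0.82, LRP10 by 0.46 and RBM23 by 0.64 on the log2 scale. MMP14 at 0.0070 lay above 18 of its 111 neighbours.

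MMP14 lay below the median of its neighbours in each OE-MMP28 library, least so in replicate 2. As deviations from the Vector mean on the log2 scale, the neighbours' median was 0.55, 0.62 and 0.62 in OE-MMP28 replicates 1, 2 and 3, and MMP14 was at -0.42, 0.31 and 0.07. In Vector replicates 1, 2 and 3 the neighbours' median was -0.01, 0.03 and 0.03, and MMP14 was at -0.07, 0.25 and -0.17. When each gene was tested relative to the median of its neighbours, MMP14 was lower in OE-MMP28 (log2 fold change -0.57, edgeR, adjusted p = 0.0382). In that fit 15.2% of all genes were called in either direction and 7.99% were called lower. The neighbours' medians came from the same 6 libraries and entered the fit as known values. Its p-values, here and below, thus leave out the error of the medians and the spread among neighbours. MMP14 was called in only 1 of the 17 alternatives, this one. Copy number was not measured, and its part in the neighbours' rise was not tested.

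**Figure D4:**
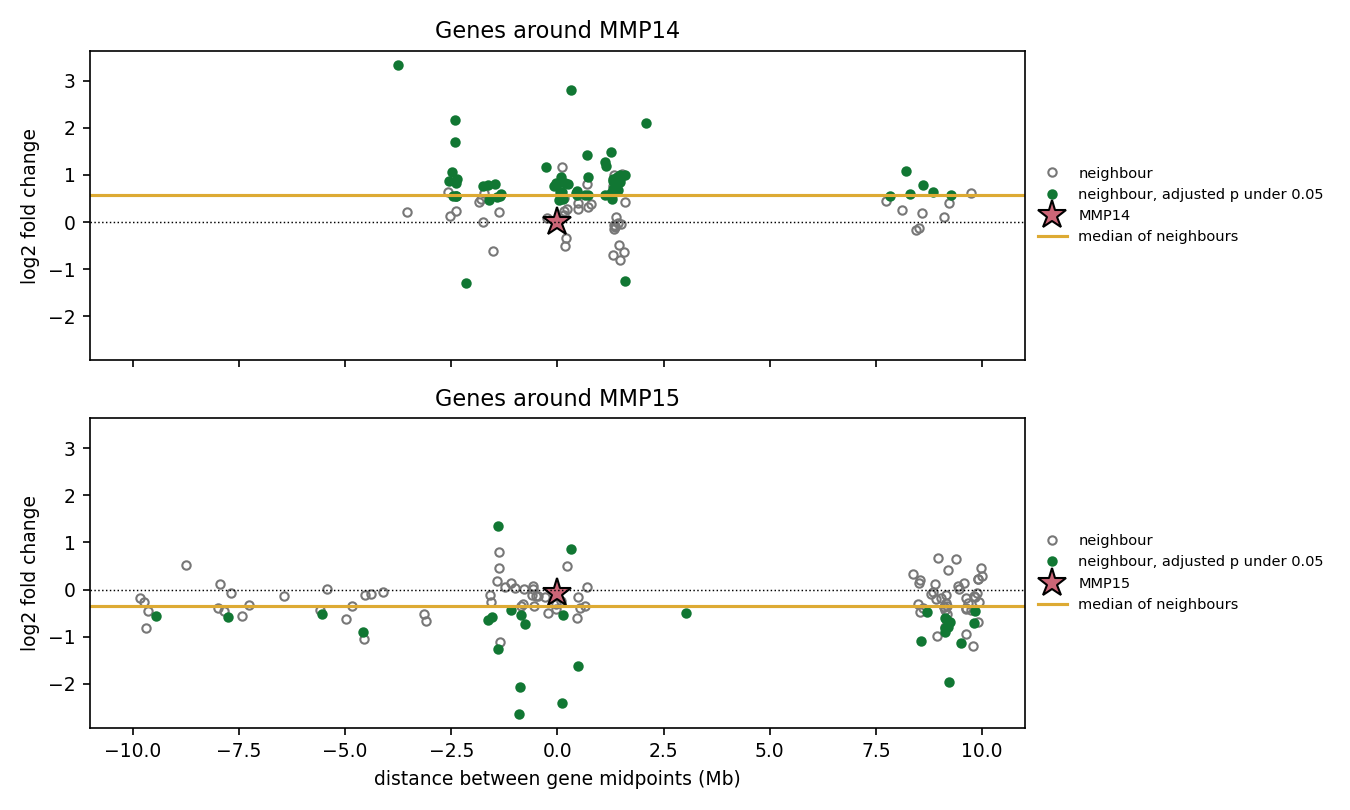
Log2 fold change (OE-MMP28 against Vector) of the tested genes within 10 Mb of MMP14 (top) and MMP15 (bottom) against their distance in Mb, filled green where the adjusted p was under 0.05, with the member as a star and the neighbours' median as a line. The median was 0.58 around MMP14, which itself lay near 0, and -0.34 around MMP15.

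MMP15 lies in a stretch of chromosome 16 in which the neighbours were shifted the other way. Of 123 tested genes within 10 Mb, 28 were called lower and 2 higher, with a median log2 fold change of -0.34. The median over the 785 tested genes of chromosome 16 was 0.0023. MMP15 was at -0.38, 0.11 and 0.02 relative to the Vector mean in OE-MMP28 replicates 1, 2 and 3, and its neighbours' median was at -0.38, -0.24 and -0.25. Relative to its neighbours MMP15 was at 0.27, which did not pass the test (edgeR, adjusted p = 0.321).

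Around the other members the neighbours' medians lay nearer 0. They were 0.020 around TIMP1 (110 genes), 0.065 around MMP11 (164 genes), 0.060 around TIMP2 (188 genes) and -0.023 around MMP24 (140 genes). Relative to the neighbours TIMP1 was at 0.60 (edgeR, adjusted p = 0.0120) and MMP11 at -1.62 (edgeR, adjusted p = 0.00582). Genes next to TIMP1 were also higher. Of the 2 nearest tested genes on each side, ARAF rose by 0.59, ZNF41 by 0.54 and UXT by 0.45 on the log2 scale, and ELK1 was at 0.46 without passing the test (edgeR, adjusted p = 0.0559).

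Genes that act with these enzymes were taken as 6 lists of 60 genes, of which 42 could be tested. Of these, 12 were higher, 4 were lower and 26 did not pass the test, and their median log2 fold change was 0.22, beside 0.014 over all genes. The 12 include MMP13, whose call was fixed by the filter, as described below, and adds no support. Over all genes tested, 11.7% were higher, 11.6% lower and 23.4% called in either direction. The lists were chosen with earlier results of these data known, so nothing particular to them is read from the total. The counts of the single lists below are also small, and nothing particular to a list is read from them. Without OE-MMP28 replicate 2, 7 pathway genes were higher and 4 lower.

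The MMP genes of the 11q22 cluster, which code for collagenases, stromelysins and matrilysin, include MMP7 and MMP1, the most abundant MMP RNAs of these cells. Of 9 genes, 4 were tested and called higher. Of these, MMP13 entered the test only through its OE-MMP28 counts, so its call was fixed by the filter and adds no support to that count. MMP7 was at 104.9, 93.7 and 122.6 FPKM in Vector and at 330.2, 308.9 and 331.2 FPKM in OE-MMP28 (log2 fold change 1.61, edgeR, adjusted p = 2.5e-07). MMP1, interstitial collagenase, was at 19.4, 17.6 and 13.4 FPKM in Vector and at 92.6, 70.3 and 74.1 FPKM in OE-MMP28 (log2 fold change 2.24, edgeR, adjusted p = 2.18e-08). MMP10 had a log2 fold change of 1.08 (adjusted p = 0.0352). That call was lost in 7 of 17 alternatives, with adjusted p up to 0.328. Among them were the fits without Vector replicate 3 (0.73), OE-MMP28 replicate 1 (0.95) or OE-MMP28 replicate 3 (0.98), and relative to its chromosomal neighbours, whose median was 0.53, MMP10 was at 0.56. The neighbours' median was also 0.53 for MMP7 and MMP1. Both were called in all 17 alternatives, with log2 fold changes of 1.08 to 1.72 for MMP7 and 1.72 to 2.36 for MMP1.

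MMP13, collagenase 3, had 0, 2 and 0 counts in Vector and 32, 19 and 30 in OE-MMP28. The ratio of its summed counts per library total was 36.2, with a 95% exact binomial interval of 9.69 to 304. The interval covers counting error only, because it pools the libraries of each group and leaves out the spread between them. It adds no support to the call. Of the 7 MMP and TIMP genes that lie elsewhere and are not members, 2 were tested (MMP25 and TIMP4) and neither passed.

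Among 7 activators of the enzymes, all tested, 2 rose and none fell, with a median log2 fold change of 0.23. PCSK5 and PCSK6 encode proprotein convertases, which cut the proenzymes of membrane-type MMPs and MMP11. Their log2 fold changes were 0.51 (adjusted p = 0.0194) and 0.44 (adjusted p = 0.0419). The PCSK5 call was lost without Vector replicate 3 (0.44), OE-MMP28 replicate 1 (0.41) or OE-MMP28 replicate 2 (0.49), and in both limma fits on FPKM. The PCSK6 call was lost in 14 of 17 alternatives and without any library but Vector replicate 1 (0.37 to 0.47). FURIN, the best-known convertase, was at 0.22 (adjusted p = 0.371).

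Of 11 surface partners and other inhibitors, 6 were tested, 1 rose and 2 fell, with a median of -0.14. CD44, a hyaluronan receptor that docks MMP14 and MMP9 on the cell, rose by 0.78 (edgeR, adjusted p = 0.000585). LRP1, an endocytic receptor that clears metalloproteinases and TIMPs, fell by 1.11 on the log2 scale (edgeR, adjusted p = 0.00263), a call lost in both limma fits on FPKM (-0.79 and -1.04, adjusted p = 0.0739 and 0.0662). SDC1, a heparan sulfate proteoglycan, fell by 0.50 (edgeR, adjusted p = 0.0181), but it was at 0.019 relative to its chromosomal neighbours. RECK, a membrane-anchored inhibitor of MMP14, MMP2 and MMP9, had 0 counts in every library.

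Of 13 genes of basement membrane proteins and fibronectin, which these enzymes cut, 10 were tested, 2 rose and 1 fell, with a median of 0.17. HSPG2 (perlecan) had a log2 fold change of 0.73 and NID1 (nidogen) of 0.69, with adjusted p of 0.00675 and 0.00701. Both calls were lost without OE-MMP28 replicate 2 (0.42 and 0.61), that of HSPG2 also in both limma fits on FPKM (0.65 and 0.67), and that of NID1 also without Vector replicate 3 (0.58). LAMB1, a laminin chain, fell by 1.11 on the log2 scale (edgeR, adjusted p = 4.96e-05) and was called in all 17 alternatives.

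The list of transcription factors that bind AP-1, ETS and related motifs in MMP and TIMP promoters held 13 genes, all tested, of which 3 rose and 1 fell, with a median of 0.078. The AP-1 members FOSL1 and FOS rose by 0.98 (edgeR, adjusted p = 0.00100) and 0.85 (edgeR, adjusted p = 0.00450), and FOSL2 fell by 1.11 on the log2 scale (edgeR, adjusted p = 0.000184). ETV5, a PEA3 group factor, rose by 0.61 (edgeR, adjusted p = 0.00712), a call lost without OE-MMP28 replicate 2 (0.54). FOS lies on chromosome 14, and relative to their neighbours FOS was at 0.24 and ETV5 at 0.16, neither past the threshold. The FOS call was lost in 2 of 17 alternatives, that fit among them. FOSL1, whose neighbours had a median of 0.31, was called in all 17. The neighbours of FOSL2 had a median of -0.52, in the direction of its fall. FOSL2 was called in all 17 alternatives, with log2 fold changes of -1.26 to -0.59.

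**Figure D5:**
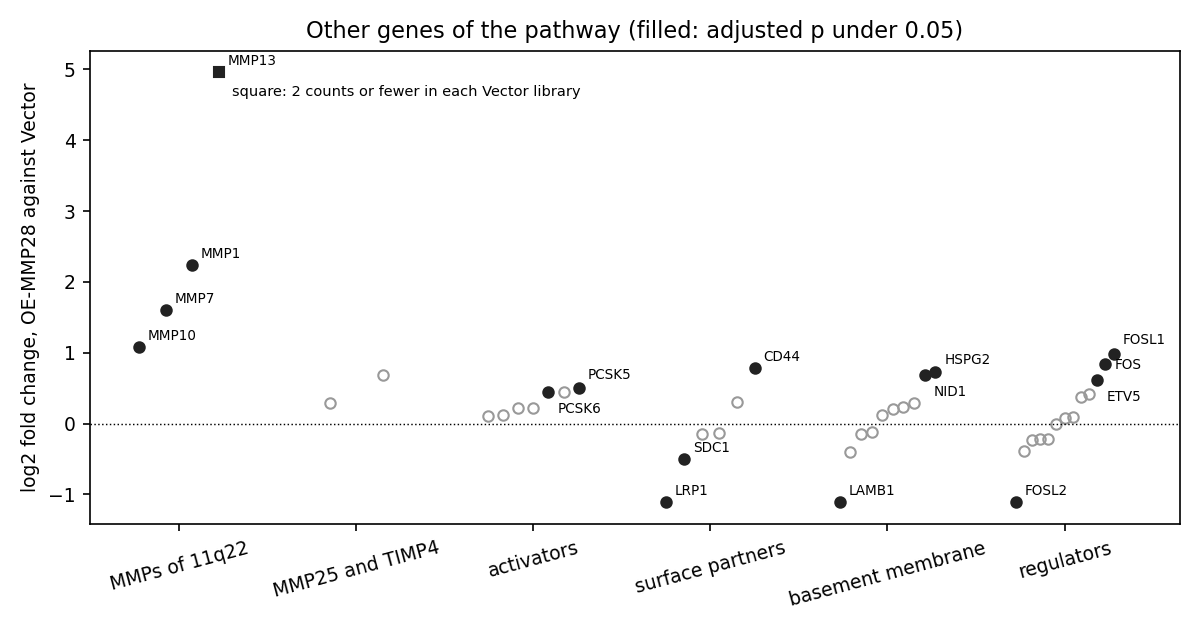
Log2 fold change (OE-MMP28 against Vector) of the 42 tested genes of the 6 pathway lists, 1 point per gene, filled and named where the adjusted p was under 0.05, in order of value within each list. The 4 tested genes of 11q22 stand highest, and the fitted value of MMP13 (square) rests on at most 2 counts per Vector library and depends on the prior count.

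Genes with the pattern across libraries most like that of TIMP1 and MMP11 were sought among protein-coding genes that averaged 1 FPKM or more. Over the 6 libraries, the log2 CPM of TIMP1 followed IFT43 (Pearson's r = 0.997), MPI (0.993) and SNRNP25 (0.992) most closely. IFT43 was at 1.71, 2.16 and 2.11 FPKM in Vector and at 2.99, 2.83 and 3.93 FPKM in OE-MMP28, with the highest library the same as for TIMP1. MMP11 followed RHPN1 (0.998), CNN2 (0.997) and ZNF517 (0.997). RHPN1 was at 10.5, 13.8 and 13.3 FPKM in Vector and at 4.91, 7.50 and 8.63 FPKM in OE-MMP28, lowest in replicate 1 of each group as MMP11 was. These correlations describe 6 points that share the group difference, picked from 10438 genes for TIMP1 and 10439 for MMP11.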

How the data were processed

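RNA of 6 AsPC-1 libraries was sequenced (NEBNext Ultra kit). The authors deposited whole-number read counts per gene and FPKM values in 1 table, and the submitters' processing notes name HISAT2 2.0.5 and featureCounts 1.5.0-p3. Strand setting and handling of reads that match several places were not given in the sources used here. The authors' comparison (log2 fold changes, p-values and, as signal, mean normalized counts per group, all as deposited) was not used. All 58735 gene identifiers and coordinates matched GENCODE release 29 (GRCh38). FPKM values implied library totals within -2.01% and 2.02% of the summed counts. A limit of 3 counts corresponds to 0.180 to 0.220 CPM, for counting error only.

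Counts were tested with edgeR 4.0.16 (R 4.3.3; filterByExpr, minimum count 10, minimum total 15; TMM; quasi-likelihood; group alone), with Benjamini-Hochberg adjustment over 15319 genes and a threshold of 0.05. Alternatives were other scalings and filters, DESeq2 1.42.0, limma 3.58.1 (voom, and trend on log2 FPKM with pseudocounts of 1 and 0.1 for genes that averaged 0.5 FPKM or more), each library left out, the replicate number as a block, an offset by the median log2 fold change of genes within 10 Mb, and counts without mitochondrial genes. The scripts were tested on simulated data. Ratios of FPKM were compared by exact permutation. Summed levels are FPKM.

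The members, the pathway and marker lists and the rule for named genes were chosen with earlier results of these data known. The rule named the members, MMP28, list genes with an adjusted p under 0.05, genes whose exons overlap a member, and the 3 genes most correlated with the member that rose and the member that fell most. Chromosomal neighbours, single cell type markers, FURIN, RECK, MMP25 and TIMP4 were named outside it.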

Additional observations from a re-analysis of the deposited data

How the results depend on the processing

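TIMP1 kept its call in all 17 alternatives and MMP11 in 15. No alternative called MMP24 (15 settings, adjusted p from 0.0954 to 0.431) or TIMP2 (17 settings). MMP14, near 0, turned negative with RLE scaling (-0.013), upper-quartile scaling (-0.043), no filter (-0.0020), a CPM filter (-0.018), DESeq2 (-0.0068), voom (-0.012), limma on FPKM (-0.021 and -0.023), without mitochondrial genes (-0.022) and with the local offset (-0.57), and ranged from -0.18 to 0.16 with 1 library left out. With the local offset MMP15 turned to 0.27 and SDC1 to 0.019. With 1 library left out MMP15 ranged from -0.18 to 0.043 and the log2 ratio of MMP14 to TIMP2 from -0.39 to 0.086. The causes were not tested.

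In the edgeR fit 1795 genes were higher and 1784 lower. limma on FPKM called 1009 and 965 genes with a pseudocount of 1, and 1000 and 970 with 0.1. It called 0 members lower with either pseudocount, and 6 and 7 pathway genes higher in place of 12. The local offset called 1101 genes higher and 2 members lower. With 1 library left out, 985 to 1916 genes were higher and 1044 to 1949 lower, and 7 to 14 pathway genes were higher. The lowest counts came without OE-MMP28 replicate 2 (985 and 1044), and 1136 genes were higher without Vector replicate 3. Over the genes of the pathway lists and MMP11, a call was lost with its sign kept in 39 pairs of gene and alternative setting. Between 10 and 74 counts per library limit the precision for MMP11 and MMP24.

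Same-numbered libraries did not deviate together (correlations 0.017, 0.0080 and -0.088), so replicate numbers were not taken as pairs. With the number as a block, 1844 genes were higher and 1841 lower, and MMP14 was at -0.012. Of the genes named, PCSK6 lost its call with the block (adjusted p = 0.0553), and TIMP1 and MMP11 kept theirs.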
